A study of Schizosaccharomyces pombe with 9 samples.

Results

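The thiamine genes of the fission yeast Schizosaccharomyces pombe were followed in cells whose co-activator subunit Tra1 was altered or missing. The 7 genes, of 5129 in the count table, were taken by their systematic IDs: the synthesis genes nmt1 (SPCC1223.02), thi2 (SPBC26H8.01) and thi4 (SPAC23H4.10c), the transporter genes thi9 (SPAC9.10) and bsu1 (SPAC17A2.01), the regulator gene thi1 (SPAC1486.10) and the acid phosphatase gene pho4 (SPBC428.03c). Poly(A)-selected RNA was sequenced from 9 libraries, 3 each of a strain carrying the tra1 allele tra1-AA, a tra1 deletion strain (tra1D) and wild type (WT), all grown to mid-log phase in YES, a rich medium. Each genotype was a single strain, and the labels do not say how tra1-AA differs from the normal gene or whether replicates came from separate cultures, so every p-value here speaks of the spread among these libraries, which may be technical. Titles of the tra1D and WT libraries carry a re-analysis mark that those of tra1-AA lack, so the mark and the genotype cannot be told apart in comparisons of tra1-AA with either. Tra1 is a pseudokinase subunit of SAGA, a transcriptional co-activator, and the series concerns TTT, the Hsp90 cochaperone that helps such proteins mature.

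Fission yeast can make thiamine, vitamin B1, from a pyrimidine and a thiazole moiety. The pyrimidine phosphate comes from Nmt1, the thiazole from Thi2, and Thi4 joins them; Tnr3 then adds a diphosphate to give the active cofactor. Cells also import the vitamin, and thiamine in the medium is known to repress synthesis genes. nmt1 takes its name from this (no message in thiamine), and its promoter drives widely used expression vectors. The transcription factors Thi1 and Thi5 are known as activators of the pathway.

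The bases just before the transcript starts are shown because 5 of the 7 genes have a TATA-like string there (TATATAA or TATAAA). The 60 bases upstream of each start are given from the RefSeq annotation and genome ASM294v3, written 5′ to 3′ on the strand of the gene, with TATATAA or TATAAA in capitals.
nmt1: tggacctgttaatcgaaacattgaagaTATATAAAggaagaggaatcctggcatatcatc
thi2: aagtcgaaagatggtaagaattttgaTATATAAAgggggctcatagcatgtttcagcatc
thi4: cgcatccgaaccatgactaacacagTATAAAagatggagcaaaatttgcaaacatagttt
thi9: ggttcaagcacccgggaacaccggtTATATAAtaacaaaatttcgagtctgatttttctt
bsu1: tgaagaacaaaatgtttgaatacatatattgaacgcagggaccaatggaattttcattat
thi1: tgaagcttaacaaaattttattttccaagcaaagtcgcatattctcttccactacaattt
pho4: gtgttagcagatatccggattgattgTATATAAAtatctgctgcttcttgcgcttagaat

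These windows lie at chrIII:1838355-1838414 on the plus strand for nmt1, chrII:3940466-3940525 plus for thi2, chrI:1589873-1589932 plus for thi4, and chrI:1482359-1482418 plus for thi9. Those of bsu1, thi1 and pho4 lie at chrI:3549974-3550033 plus, chrI:3211813-3211872 plus and chrII:447029-447088 minus. These positions belong to ASM294v3 alone, the build of the authors being not given in the sources used here. TATATAA began 33 bases before the start in nmt1, 34 in thi2 and in pho4, and 35 in thi9, and TATAAA began 35 bases before it in thi4. The 2 motifs overlap in nmt1, thi2 and pho4, and in thi9 TATATAA also matched the other strand. In bsu1 and thi1 neither string occurred on either strand of this window. Among 5112 protein-coding genes, 3.29% had TATATAA and 6.63% TATAAA on the strand of the gene in the same window, 8.51% had at least 1 of the 2, and 13.3% had 1 on either strand. This window was chosen after the matches were seen; with 250 bases the same 5 genes matched, and 32.6% of all promoters did. A match describes the letters only.

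The libraries held 5738138 to 8101004 counts, and levels are given as CPM, counts scaled to a common library total. By raw library totals, without the scaling factors used for the levels, a single count was worth 0.123 to 0.174 CPM. On the same raw basis a count of 0 allows up to 0.370 to 0.523 CPM (3 counts). Intervals from counts and these limits cover counting error only. Transcripts of tra1 itself averaged 79.1 ± 8.22 CPM in tra1-AA, 0.440 ± 0.251 CPM in tra1D and 94.1 ± 4.55 CPM in WT (SD, n = 3), so the deletion label held. Every one of the 7 thiamine genes is overlapped on the opposite strand by at least 1 long non-coding RNA in the RefSeq annotation, over its whole length (100%) in nmt1. thi4 also overlaps the protein-coding gene cdb4 over 36.9% of its length. The libraries were stranded, but the strand setting of the counting is not given, so sense and antisense reads cannot be told apart here. The same holds for each called gene of the lists described further on, all of which have an annotated antisense transcript, and pho1 also overlaps another transcript on its own strand. No member has another coding sequence at 98% identity over 50 bases or more.

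Among the thiamine genes, the transporter gene thi9 rose in tra1D, and it was the single call in the comparisons with WT. Of the 7, 6 passed the filter on low counts and were tested, and nmt1 did not. In tra1-AA against WT none of the 6 passed (edgeR quasi-likelihood test, adjusted p under 0.05), against 15.9% of all 4913 genes tested. At an unadjusted p under 0.05, bsu1 alone did, but the share of all genes at that threshold was not taken, so this count cannot be weighed. At an adjusted p under 0.05, bsu1 passed in DESeq2, which called 814 genes in all, and with the replicate number as a block, which called 718. In bulk RNA such as this, fewer expressing cells and less RNA per cell cannot be told apart. In tra1D against WT 1 of the 6 passed, against 11.5% of all genes. Between tra1-AA and tra1D none passed in edgeR or in DESeq2, and in edgeR 0.0407% of all genes, or 2 genes, were called. At an unadjusted p under 0.05 thi9 was the sole member, again without a share of all genes at that threshold. The median absolute log2 fold change of the 6 was 0.05 in tra1-AA and 0.12 in tra1D, beside 0.14 and 0.13 over all genes tested.

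**Figure D1:**
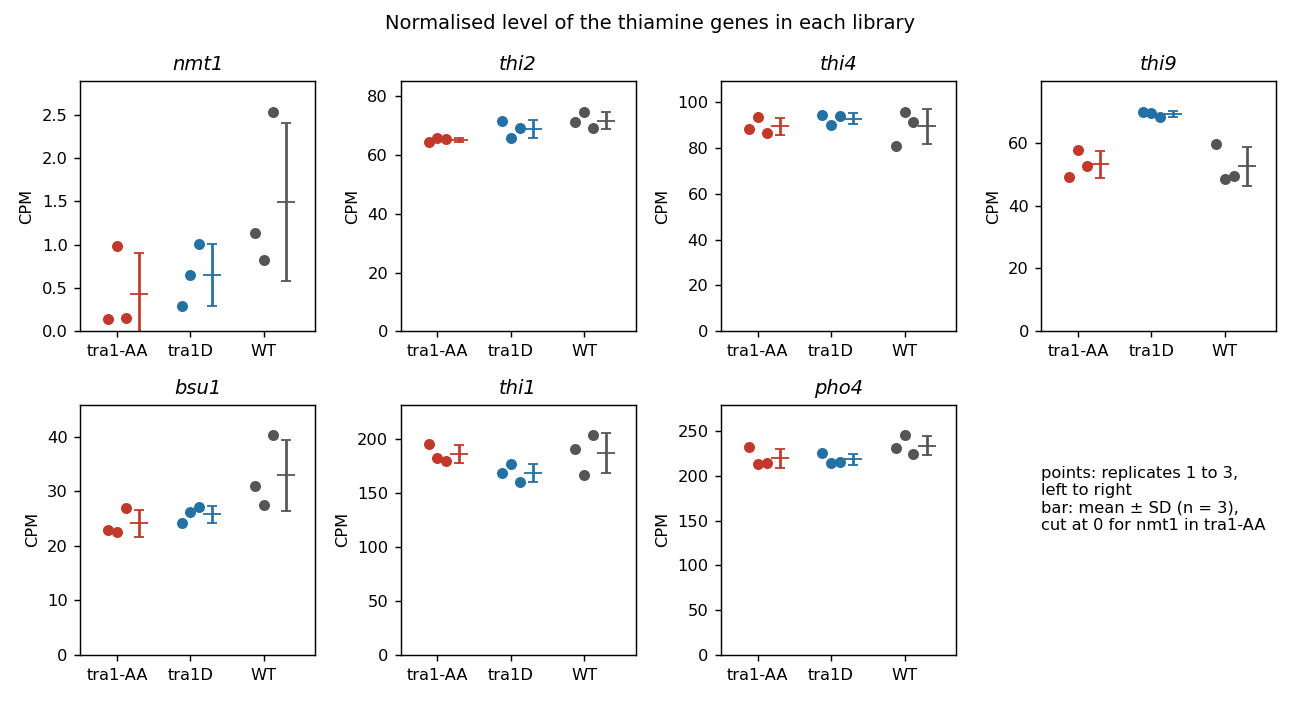
Normalised level (CPM, linear axis from 0) of each of the 7 thiamine genes in each library, with tra1-AA, tra1D and WT from left to right; points are replicates and bars the mean ± SD (n = 3). The tra1D points of thi9 (68.1 to 69.9 CPM) stand above all others of that gene, while thi4, thi1 and pho4 overlap between each mutant and WT.

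**Figure D2:**
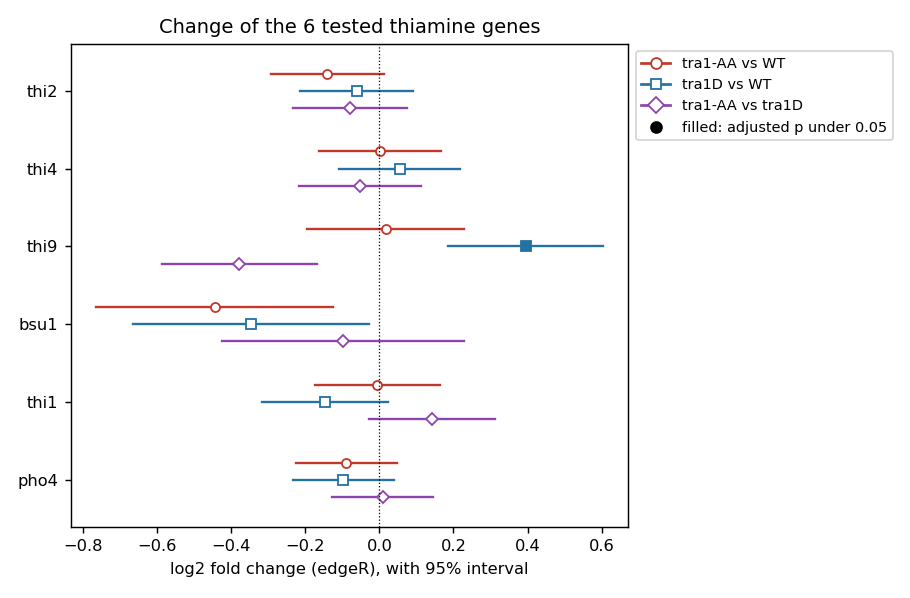
Log2 fold changes of the 6 tested thiamine genes from edgeR, with 95% intervals, for both mutants against WT and for tra1-AA against tra1D; filled symbols passed at an adjusted p under 0.05. The filled symbol is thi9 in tra1D at 0.40, and the intervals of bsu1 against WT lie below 0 although its adjusted p-values did not pass.

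Among the synthesis genes, nmt1, which encodes the enzyme that makes the pyrimidine phosphate, was barely detected in any strain. Counts of nmt1 in replicates 1 to 3 were 1, 7 and 1 for tra1-AA, 2, 5 and 6 for tra1D, and 9, 6 and 16 for WT. Most of the mutant libraries were lower than every WT library, but tra1-AA replicate 2 (0.979 CPM) and tra1D replicate 3 (1.01 CPM) lay above WT replicate 2 (0.819 CPM), so the groups overlapped. The mean level was 0.424 ± 0.480 CPM in tra1-AA, 0.648 ± 0.358 CPM in tra1D and 1.496 ± 0.913 CPM in WT (SD, n = 3). Over all 9 libraries nmt1 had 53 counts, and 197 genes of the table had fewer.

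The summed counts of nmt1 were nonetheless unequal between strains. The 9 counts of tra1-AA against 31 of WT gave a normalised ratio of 0.301 (exact 95% counting interval 0.126 to 0.648), and the 13 counts of tra1D against 31 gave 0.440 (0.211 to 0.865). These intervals leave out the spread between replicates. The exact two-sided permutation test on CPM gave p = 0.20 in tra1-AA and p = 0.20 in tra1D, but 0.1 is the smallest p that 3 against 3 libraries allow, so this test could not pass and decides nothing. When nmt1 was kept by dropping the filter, its log2 fold change was -1.70 in tra1-AA (SE 0.72, unadjusted p = 0.0361, BH-adjusted p = 0.134, edgeR) and -1.17 in tra1D (SE 0.67, unadjusted p = 0.106, BH-adjusted p = 0.294, edgeR), so neither passed after adjustment. Without WT replicate 3, which held 16 of the 31 WT counts, the log2 ratio of summed counts was -1.18 in tra1-AA and -0.64 in tra1D; without tra1-AA replicate 2, which held 7 of 9 counts, it was -3.29 in tra1-AA, so 1 library decides the size. In the authors' deposited table nmt1 has a log2 value of -0.31 in tra1-AA (adjusted p = 0.184, authors' DESeq2) and -0.27 in tra1D (adjusted p = 0.332, authors' DESeq2). Their standard errors, 0.15 and 0.17, are far below the 0.72 and 0.67 of the edgeR fit. The 2 sets of log2 values may thus not be on the same scale, and their sizes were not compared.

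thi2, the thiazole synthesis gene whose TATATAA match sits at nearly the same distance as that of nmt1, lay above the median gene, per kilobase, in the same libraries. Its level was 64.3, 65.7 and 65.4 CPM in tra1-AA, 71.8, 65.7 and 69.1 CPM in tra1D and 71.3, 74.8 and 69.2 CPM in WT. The tra1-AA libraries were all lower than the WT libraries, and the tra1D libraries overlapped both. The log2 fold change was -0.14 in tra1-AA (95% interval -0.29 to 0.01, edgeR, BH-adjusted p = 0.201) and -0.06 in tra1D (-0.21 to 0.09, BH-adjusted p = 0.608), so neither passed.

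thi4 encodes the bifunctional enzyme that joins the pyrimidine and the thiazole. It had 88.2, 93.7 and 86.3 CPM in tra1-AA, 94.4, 90.0 and 93.9 CPM in tra1D and 80.9, 95.8 and 91.4 CPM in WT. All 3 groups overlapped, and the WT libraries spread more widely than either mutant. The log2 fold change of thi4 was 0.002 in tra1-AA (95% interval -0.16 to 0.17, edgeR, BH-adjusted p = 0.990) and 0.05 in tra1D (-0.11 to 0.22, BH-adjusted p = 0.682). A change of more than about 1.16-fold up in either mutant thus lay outside the 95% intervals of thi4.

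Among the transporter genes, thi9, which encodes the high-affinity thiamine/proton transporter of the plasma membrane, rose in tra1D. It had 49.1, 57.6 and 52.8 CPM in tra1-AA, 69.9, 69.4 and 68.1 CPM in tra1D and 59.6, 48.4 and 49.4 CPM in WT. The 3 tra1D libraries had a coefficient of variation of 1.36% and lay above every library of the other strains, while tra1-AA overlapped WT, whose replicate 1 was high. The rise in tra1D was 1.32-fold (95% interval 1.138 to 1.52), a log2 fold change of 0.40 (SE 0.10, edgeR, BH-adjusted p = 0.0212). Non-overlapping groups with the mutant higher, as in thi9, were found in 17.6% of all genes tested in tra1D, and a larger absolute log2 fold change in 11.1%. None of the 6 was of this kind in tra1-AA, beside 19.8% of all genes. In tra1-AA the log2 fold change was 0.02 (95% interval -0.20 to 0.23, edgeR, BH-adjusted p = 0.923). The authors' deposited table gives 0.36 for thi9 in tra1D (adjusted p = 0.0150, authors' DESeq2) and 0.005 in tra1-AA (adjusted p = 0.988).

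The call of thi9 in tra1D kept its size when libraries were left out but not its side of the threshold. Its log2 fold change ran from 0.34 to 0.50 over the 9 fits that each lacked 1 library, and it passed in 4 of them. It was lost without WT replicate 2 (0.34), WT replicate 3 (0.35), tra1D replicate 1 (0.39), tra1D replicate 2 (0.39) or tra1D replicate 3 (0.41), with adjusted p up to 0.0702 in edgeR. Compared directly, thi9 was lower in tra1-AA than in tra1D by a log2 fold change of -0.38 (95% interval -0.59 to -0.17), with non-overlapping libraries and an unadjusted p of 0.0020 in edgeR, but the BH-adjusted p over all genes was 0.981. A difference of thi9 between the 2 mutants was therefore not shown by this test.

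By the shape of its level over the 9 libraries, thi9 was most like duc2 (SPBC409.17c) and afg1 (SPBC115.02c, an AFG1 family ATPase gene). The root mean square difference of their centred log2 CPM from that of thi9 was 0.114 and 0.122, where the median over 4608 genes was 0.246 and thi9 itself deviated from its mean by 0.207. This measures likeness over these libraries and says nothing of shared function.

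bsu1, the other transporter gene, annotated as an importer of vitamin B6, was lower in both mutants, and whether it passed in tra1-AA depended on the fit. It had 22.9, 22.5 and 26.9 CPM in tra1-AA, 24.1, 26.2 and 27.2 CPM in tra1D and 30.9, 27.6 and 40.2 CPM in WT. Every mutant library was below every WT library, and WT replicate 3 stood well above the rest. In tra1-AA against WT, 14.9% of all genes tested were lower with non-overlapping groups, and in tra1D against WT 15.1% were; of the 6 tested thiamine genes, bsu1 and thi2 in tra1-AA and bsu1 in tra1D were of this kind. Counting both directions, 34.7% of all genes had non-overlapping groups in tra1-AA and 32.7% in tra1D. The log2 fold change of bsu1 was -0.44 in tra1-AA (95% interval -0.76 to -0.12, edgeR, BH-adjusted p = 0.0608) and -0.35 in tra1D (-0.66 to -0.03, BH-adjusted p = 0.153).

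The value of bsu1 in tra1-AA sat at the edge of the threshold. It passed in DESeq2 (-0.46, BH-adjusted p = 0.0329), where 814 genes were called. It also passed without WT replicate 2 (-0.56, edgeR, BH-adjusted p = 0.0308), where 587 were called. Without WT replicate 3 it was -0.28 (edgeR, BH-adjusted p = 0.197). With the replicate number as a block, bsu1 passed in tra1-AA (-0.44, edgeR, BH-adjusted p = 0.0414), where 718 of all genes tested were called. In tra1D it was -0.18 without WT replicate 3 (edgeR, BH-adjusted p = 0.439). The authors' deposited table gives -0.38 for bsu1 in tra1-AA (adjusted p = 0.0663, authors' DESeq2) and -0.30 in tra1D (adjusted p = 0.170). The 2 comparisons share the WT libraries, so the lower values in both mutants are not independent of each other.

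thi1 encodes the DNA-binding activator of the pathway. Its transcript had 196, 183 and 180 CPM in tra1-AA, 169, 177 and 160 CPM in tra1D and 191, 167 and 204 CPM in WT. The tra1-AA libraries all lay above the tra1D libraries, and both overlapped WT. Between the mutants, thi1 (higher in tra1-AA) and thi9 (lower in tra1-AA) were the 2 of 6 tested genes whose groups did not overlap, beside 9.06% of all genes, 4.66% higher and 4.4% lower. The log2 fold change of thi1 was -0.01 in tra1-AA (95% interval -0.17 to 0.16, edgeR, BH-adjusted p = 0.969), -0.15 in tra1D (-0.32 to 0.02, BH-adjusted p = 0.250) and 0.14 between tra1-AA and tra1D (-0.03 to 0.31, BH-adjusted p = 0.999).

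pho4, which encodes an acid phosphatase known to be repressed by thiamine, was the most highly expressed of the 7. It had 232, 213 and 214 CPM in tra1-AA, 226, 215 and 216 CPM in tra1D and 231, 245 and 225 CPM in WT, with overlap between the groups. The log2 fold change of pho4 was -0.09 in tra1-AA (95% interval -0.23 to 0.05, edgeR, BH-adjusted p = 0.367) and -0.10 in tra1D (-0.23 to 0.04, BH-adjusted p = 0.347). A fall of pho4 to less than 0.85 of its WT level lay outside both intervals.

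Set on a scale per kilobase of transcript, the 7 genes held nearly the same order in every strain. In WT the mean levels were 1.20 ± 0.730 CPM per kb for nmt1, 16.2 ± 3.23 for bsu1, 22.5 ± 2.64 for thi9, 26.9 ± 2.30 for thi4, 61.1 ± 2.38 for thi2, 71.0 ± 7.02 for thi1 and 137 ± 6.10 for pho4 (SD, n = 3). bsu1, thi9 and thi4 were below the median of the tested genes in WT (41.8 CPM per kb), and thi2, thi1 and pho4 above it. Among neighbours in this order, the WT libraries of thi9 and thi4 overlapped, as did those of thi2 and thi1, and the libraries of the other neighbours did not overlap.

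The exception to this order was thi9 in tra1D, where it averaged 29.6 ± 0.403 CPM per kb and passed thi4 at 28.0 ± 0.730 CPM per kb. That order depends on the length used: per kilobase of coding sequence thi4, whose transcript is long (3316 bases, of which 1557 are coding), had 59.6 CPM in tra1D against 38.9 for thi9. The feature over which the authors counted is not given, so the choice cannot be settled here. nmt1 has a TATATAA match before its start, as thi2 and pho4 do. Per kilobase of transcript, nmt1 lay at percentile 0.16 of the tested genes in tra1-AA and tra1D and 0.69 in WT. The filter on low counts had left nmt1 out of these genes, so a very low rank among them follows from the filter. Among all genes counted, 3.84% had fewer counts than nmt1 over the 9 libraries, with no scaling by length. pho4 lay at percentile 81.7, 81.9 and 82.6 of the tested genes in tra1-AA, tra1D and WT.

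**Figure D3:**
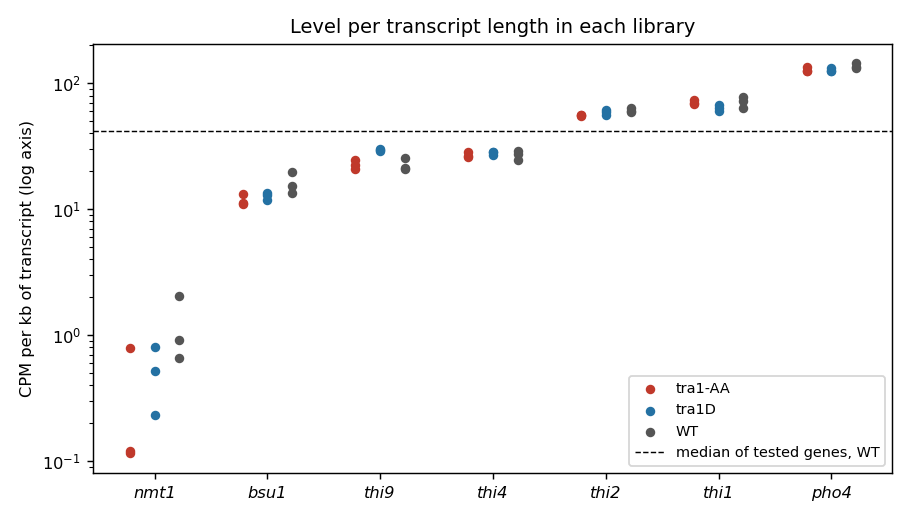
Level per kilobase of transcript (CPM per kb, log axis) of the 7 thiamine genes in each library, ordered by their WT mean, with tra1-AA, tra1D and WT from left to right within each gene; the dashed line is the WT median of the tested genes (41.8). nmt1 lies far below the others in every strain and pho4 above them.

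Among the other genes of thiamine biology, the regulator gene thi5 fell in both mutants, by calls that did not hold in every fit. thi5 (SPBP8B7.30c), which encodes a DNA-binding transcription factor of the pathway, had 46.4, 38.2 and 36.5 CPM in tra1-AA, 32.7, 44.5 and 39.7 CPM in tra1D and 55.5, 49.1 and 56.2 CPM in WT, all mutant libraries lying below all WT libraries. Its log2 fold change was -0.41 in tra1-AA (SE 0.13, BH-adjusted p = 0.0487, edgeR) and -0.46 in tra1D (SE 0.13, edgeR, BH-adjusted p = 0.0395). Both calls were close to the threshold: with each library left out in turn, thi5 passed in 4 of 9 fits in tra1-AA and in 5 of 9 in tra1D. The calls of thi5 were lost in both mutants without WT replicate 1, WT replicate 3 or tra1D replicate 3, in tra1-AA also without tra1-AA replicate 2 or 3, and in tra1D also without tra1D replicate 1. In both mutants the call of thi5 was lost with the replicate number as a block (edgeR, BH-adjusted p = 0.0793 in tra1-AA and 0.0676 in tra1D).

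Of the 7 genes on that list, thi5 and SPBC1604.04 fell in tra1-AA and thi5 fell in tra1D, and none rose in either; over all genes tested, 7.96% fell in tra1-AA and 6.35% in tra1D. SPBC1604.04, annotated as a thiamine pyrophosphate transporter, averaged 35.5 ± 3.15 CPM in tra1-AA against 44.2 ± 0.694 CPM in WT (SD, n = 3), and its log2 fold change of -0.32 (SE 0.09) had a BH-adjusted p of 0.0376 in edgeR. It passed in 3 of the 9 fits that lacked a library, and was lost when any of the WT libraries, tra1D replicate 2, or either of tra1-AA replicates 2 and 3 was absent. It was also lost with the replicate number as a block (BH-adjusted p = 0.0550 in edgeR). Outside the rule for named genes, thi20 and thi201, phosphomethylpyrimidine kinase genes, were chosen for their places in the pathway after their values were seen. Their log2 fold changes were -0.27 and -0.23 in tra1-AA and -0.29 and -0.15 in tra1D (edgeR, lowest BH-adjusted p = 0.0540). SPCC18B5.05c, annotated with the same product, went the other way, at 0.16 in tra1-AA and 0.17 in tra1D (edgeR, lowest BH-adjusted p = 0.319). tnr3, the thiamine diphosphokinase gene, chosen likewise, had -0.01 in tra1-AA and -0.12 in tra1D. SPCC794.03, annotated as a thiamine transporter and also outside the rule, had -0.55 and -0.61 (edgeR, lowest BH-adjusted p = 0.188), the opposite direction to thi9 in tra1D. Its level was low, with a mean of 7.69 CPM in WT. The libraries of each mutant lay below those of WT, as in 14.9% of all genes in tra1-AA and 15.1% in tra1D. The median log2 fold change of the 7 was -0.27 in tra1-AA and -0.15 in tra1D, against 0.01 and 0.004 over all genes tested. This list was chosen with earlier results of these data known, and a shift of the list was not tested.

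The genes listed for enzymes that use thiamine pyrophosphate, among them a regulatory subunit gene (ilv6), showed no call in either mutant. Of 10 genes listed, 9 were tested, and none passed in edgeR, beside 15.9% of all genes in tra1-AA and 11.5% in tra1D; with so few genes, a count of 0 is near those shares. The 4 with the highest CPM averaged over all 9 libraries were pdc101 (pyruvate decarboxylase), tkt1 (transketolase), pda1 and pdb1 (the alpha and beta subunits of the first component of pyruvate dehydrogenase). Their log2 fold changes were -0.10, -0.01, 0.06 and 0.07 in tra1-AA and -0.14, -0.005, 0.01 and 0.07 in tra1D. ilv6, the acetolactate synthase regulatory subunit gene, was above pdb1 in WT alone by CPM (504.5 against 471.6) and in every strain per kilobase of transcript; its log2 fold change was -0.13 in tra1-AA and -0.18 in tra1D. The untested gene, pdc102 (SPAC186.09), another pyruvate decarboxylase gene singled out after its values were seen, had 0 summed counts in tra1-AA, 5 in tra1D and 21 in WT.

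Vitamin B6 supplies atoms of the pyrimidine in budding yeast, by the counterpart of Nmt1. Of its listed genes, plr1 fell and pdx3 rose in both mutants. plr1 (SPAC9E9.11), the pyridoxal reductase gene, had 86.2, 90.4 and 94.1 CPM in tra1-AA, 83.0, 96.3 and 106 CPM in tra1D and 159, 130 and 173 CPM in WT. No mutant library reached the lowest WT library. The fall of plr1 was -0.77 on the log2 scale for tra1-AA (SE 0.11, edgeR, BH-adjusted p = 0.000836) and -0.69 for tra1D (SE 0.11, edgeR, BH-adjusted p = 0.00191), and it passed in all 9 fits that each lacked a library, in both mutants.

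pdx3 (SPAC1093.02), annotated as a pyridoxamine 5′-phosphate oxidase gene, rose in both mutants. It averaged 134 ± 12.6 CPM in tra1-AA, 139 ± 1.16 CPM in tra1D and 106 ± 4.34 CPM in WT (SD, n = 3). Its log2 fold change was 0.35 in tra1-AA (edgeR, BH-adjusted p = 0.00898; lost without tra1-AA replicate 2) and 0.40 in tra1D (edgeR, BH-adjusted p = 0.00497). SPAC6F6.11c, annotated as a kinase of pyridoxine and related forms, rose in both, by 0.32 on the log2 scale in tra1-AA (BH-adjusted p = 0.0277, edgeR) and by 0.31 in tra1D (edgeR, BH-adjusted p = 0.0362). The SPAC6F6.11c call was kept in 5 of 9 fits in tra1-AA and 3 of 9 in tra1D; in both it was lost without WT replicate 1, WT replicate 3 or tra1-AA replicate 2, in tra1-AA also without tra1-AA replicate 3, and in tra1D also without any tra1D library. SPCC965.13, annotated as a membrane transporter of the pyridoxal family, fell in tra1-AA by 0.35 on the log2 scale (edgeR, BH-adjusted p = 0.0374), with overlapping groups. That call was kept in 2 of 9 such fits, those without WT replicate 3 and without tra1-AA replicate 1. In all, 2 of 12 vitamin B6 genes rose and 2 fell in tra1-AA, and 2 rose and 1 fell in tra1D, beside 7.94% of all genes rising and 7.96% falling in tra1-AA, and 5.17% rising and 6.35% falling in tra1D. The vitamin B6 list, too, was chosen with earlier results of these data known and was not tested as a list.

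pho1 (SPBP4G3.02), an acid phosphatase gene known to be repressed by phosphate, rose in both mutants. It had 695, 780 and 599 CPM in tra1-AA, 736, 742 and 509 CPM in tra1D and 368, 465 and 233 CPM in WT. All mutant libraries lay above all WT libraries, and replicate 3 was the lowest of each group. The log2 fold change of pho1 was 0.96 in tra1-AA (95% interval 0.49 to 1.43, edgeR, BH-adjusted p = 0.0122) and 0.90 in tra1D (0.43 to 1.37, BH-adjusted p = 0.0204), intervals that share no value with those of pho4. The call of pho1 was lost in tra1-AA without tra1-AA replicate 2, and in tra1D without WT replicate 1, tra1D replicate 1 or tra1D replicate 2. Of the 8 phosphate genes listed, csk1, which encodes a kinase, was the other one called, with -0.44 in tra1-AA (BH-adjusted p = 0.0319 in edgeR), and it was lost without WT replicate 1, WT replicate 3 or any tra1-AA library. The 2 of 8 phosphate genes called in tra1-AA and the 1 of 8 in tra1D stand beside 15.9% and 11.5% of all genes tested, and are near those shares. pho7, which encodes the transcription factor of pho1 and was also chosen after its values were seen, had log2 fold changes of 0.04 in tra1-AA and 0.003 in tra1D.

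**Figure D4:**
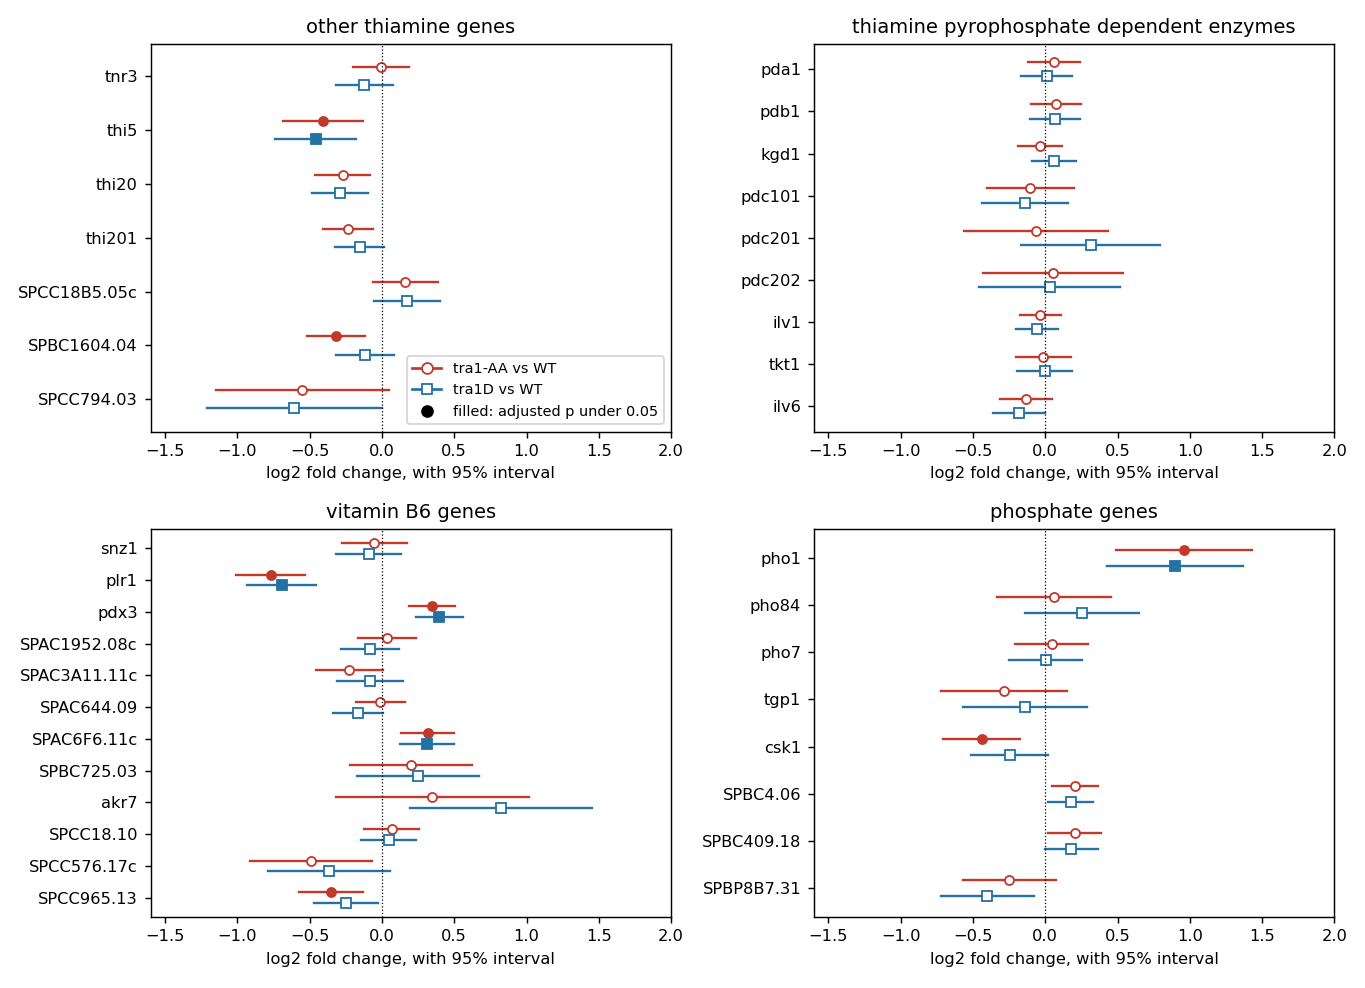
Log2 fold changes with 95% intervals of the tested genes on the 4 lists around the thiamine genes, for tra1-AA and tra1D against WT. The lists are other thiamine genes, enzymes that use thiamine pyrophosphate (with the regulatory subunit gene ilv6), vitamin B6 genes and phosphate genes. Filled symbols passed at an adjusted p under 0.05. The filled pairs are thi5 and plr1 below 0 and pdx3, SPAC6F6.11c and pho1 above 0, and no enzyme that uses thiamine pyrophosphate is filled.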

How the data were processed

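The submitters' processing notes name bcl2fastq, HISAT2 2.1.0, HTSeq 0.9.1 and DESeq2 1.18.1. The authors deposited raw read counts per gene. The authors' deposited DESeq2 tables hold log2 fold changes, errors, a p-value and its adjusted form per gene. The sources used here do not give the genome build, annotation or strand setting.

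Names came from RefSeq ASM294v3 (5114 of 5129 IDs matched, 15 not). The edgeR filter on low values (at least 10 counts, total of at least 15) left 4913 genes. All 9 libraries entered 1 quasi-likelihood model in edgeR 4.0.16 under R 4.3.3 with TMM factors, which gave the 3 comparisons, Benjamini-Hochberg adjusted over all genes at 0.05. The fit was tested on simulated data. Levels are CPM at the TMM-scaled library size. nmt1 was described by summed counts. The genes and lists were chosen with earlier results of these data known. Named genes are the 7, called members of the 4 lists or else their 4 highest, and the 2 genes nearest to a called member; exceptions are stated. Copies were sought with BLAST 2.17.0. Python 3.11.15, scipy 1.17.1 and matplotlib 3.10.9 were used. Alternatives were DESeq2 1.42.0, RLE factors, library totals, no filter or a minimum count of 50, fits of 2 groups, a replicate block, and each library left out. Deviations from group means of the same-numbered tra1-AA and WT libraries correlated at 0.109, 0.357 and 0.215. Those of tra1-AA and WT libraries of unlike number ran from -0.351 to 0.0849. Over all 9 same-numbered pairs from different strains the median was -0.0171 (range -0.203 to 0.357). Over the 18 pairs of unlike number it was 0.0265 (-0.351 to 0.22). The labels give no pairing, so whether the numbers pair samples was not settled. The main fit did not use the numbers, and calls that the block changed are given.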

Additional observations from a re-analysis of the deposited data

How the results depend on the processing

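Of the log2 fold changes of the 6 tested thiamine genes, those that turned sign under an alternative were close to 0 and uncalled throughout. thi4 in tra1-AA was -0.0088 with DESeq2, -0.0090 with RLE factors, -0.0076 with the stricter filter and -0.0043 with a fit of the 2 groups alone, and ran from -0.0665 to 0.0529 with a library left out; in tra1D it ran from -0.0136 to 0.11. With library totals alone, thi1 in tra1-AA was 0.0373, thi2 in tra1D was 0.0121 and pho4 between tra1-AA and tra1D was -0.0162. With a library left out, thi1 and thi9 in tra1-AA ran from -0.0842 to 0.0576 and from -0.0548 to 0.1202, and pho4 between the mutants from -0.0319 to 0.0317.

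The number of thiamine genes called in tra1-AA was 1 (bsu1) with DESeq2 and with the replicate block, and 0 to 1 with a library left out; in tra1D it was 0 to 1. With a library left out, the count of all genes called ran from 364 to 845 in tra1-AA, from 278 to 655 in tra1D and from 2 to 5 between the mutants. With DESeq2 it was 814 in tra1-AA, 615 in tra1D and 4 between the mutants. The replicate block gave 718 calls in tra1-AA, 514 in tra1D and 3 between the mutants. In tra1-AA the block changed the calls of bsu1, thi5 and SPBC1604.04 as given beside them, and ended no other call named there. In tra1D, whose same-numbered deviations correlated with WT at -0.0737, -0.116 and -0.0103, the block ended the calls of thi5 (edgeR, BH-adjusted p = 0.0676) and SPAC6F6.11c (0.0537). The filter on low counts kept nmt1 and pdc102 out of the test across all genes.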
